A study of Homo sapiens with 8 samples.

Results

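The cytosolic ribosomal protein genes are the genes whose symbols begin with RPL or RPS and a number, together with RPLP0, RPLP1, RPLP2 and RPSA. Of 19447 gene symbols in the table, 101 matched this pattern or these names, and 14 were left out because they encode other proteins (10 RPS6K kinases and RPS19BP1) or join 2 genes in a readthrough symbol (3 symbols). The 87 members that remained were 43 canonical proteins of the large subunit, 31 of the small subunit, the 3 proteins of the acidic stalk and 10 paralogs of canonical members. The 2 Y-linked paralogs were counted as members and their values are not reported here.

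The libraries came from K562, an established human erythroleukaemia line with a wild-type genotype label, and rRNA-depleted total RNA was sequenced. The groups were 4 control libraries without Lip-1 (replicates 1 to 4, Day 0), 3 libraries at 10 µM Lip-1 for 24 h (replicates 2 to 4, Day 1) and 1 library at 20 µM for 24 h (replicate 1, Day 1). Lip-1 is the common short name of liproxstatin-1, which blocks lipid peroxidation and with it ferroptosis, although the labels do not spell it out. As controls were all Day 0 and treated libraries all Day 1, day and treatment cannot be told apart, the labels give no vehicle, and they do not say that replicates were separate cultures, so that p-values measure only the spread between these libraries, which may be technical.

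A ribosome is built from 2 subunits. The small subunit reads the mRNA, the large subunit joins the amino acids, and the stalk of the large subunit recruits the GTPases that drive each step of translation. Most of these proteins have a single expressed gene each and are needed in equal amounts. Their mRNAs typically begin with a run of pyrimidines, the 5′ terminal oligopyrimidine (TOP) tract, through which mTORC1 and the RNA-binding protein LARP1 control their translation and stability. In the erythroid lineage, to which K562 is related, heterozygous loss of some of these genes causes Diamond-Blackfan anaemia.

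The starts of the genes were read first because the TOP tract is the sequence feature that the members share beyond their symbols. A RefSeq window (GRCh38.p14) was matched for 68 of the 85 members outside the Y chromosome. A C at the annotated start followed by 4 or more C or T bases was present in 42 of 62 canonical members (67.7%), in 1 of 6 paralogs (RPL22L1, 16.7%) and in 4.04% of 27305 promoters. The following windows run from 30 bases before to 15 bases into the transcript on the gene's own strand, and capitals mark the pyrimidine run that begins at the start site. They are shown for RPL38, RPL36, RPL28 and RPS26, on which the results below turn, and for the paralogs RPL26L1 and RPL36AL beside their canonical partners.
RPL38, chr17:74203648-74203692, plus strand: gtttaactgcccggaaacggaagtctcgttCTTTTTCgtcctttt
RPL36, chr19:5690265-5690309, plus strand: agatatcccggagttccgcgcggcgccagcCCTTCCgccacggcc
RPL28, chr19:55385902-55385946, plus strand: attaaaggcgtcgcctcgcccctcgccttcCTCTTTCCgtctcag
RPS26, chr12:56041888-56041932, plus strand: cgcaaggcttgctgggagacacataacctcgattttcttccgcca
RPL26, chr17:8383179-8383223, minus strand: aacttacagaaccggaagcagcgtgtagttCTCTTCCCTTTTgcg
RPL26L1, chr5:172958699-172958743, plus strand: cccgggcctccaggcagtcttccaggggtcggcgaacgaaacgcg
RPL36A, chrX:101390981-101391025, plus strand: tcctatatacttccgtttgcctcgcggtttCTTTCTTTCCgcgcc
RPL36AL, chr14:49620612-49620656, minus strand: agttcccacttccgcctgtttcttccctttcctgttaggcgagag

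RPL38, RPL36, RPL28, RPL26 and RPL36A carried the run at the annotated start, with 7, 6, 8, 12 and 10 pyrimidines, and RPS26, RPL26L1 and RPL36AL did not. With a start allowed anywhere within 10 bases of the annotated one, 55 of 62 canonical members held such a run (88.7%), against 33.3% of all promoters. RPS26 was among these 55, as its window above shows, and RPL36AL joined RPL22L1 among the paralogs. The motif CTTTC on the gene's strand lay within 10 bases either side of the start in 38.7% of canonical members and 2.93% of all promoters. Over the whole window of 300 bases, CCGGAAG was found on either strand in 33.9% of canonical members and 10.7% of promoters, and AAGATGGC in 9.68% and 3.03%. A match is a description of these letters, and an annotated start can differ from the start used in K562.

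The 87 members together held between 7.82% and 8.58% of all counts in the controls. They held 8.65%, 8.04% and 7.15% in replicates 2 to 4 at 10 µM and 7.42% at 20 µM. The share at 10 µM therefore spanned a wider range than the controls and overlapped it, and of the treated libraries only 10 µM replicate 4 and the 20 µM library lay below every control. Summed CPM (counts scaled to 1000000 per library) at 10 µM were 0.968 of the control mean without further scaling and 0.890 after scaling by trimmed mean of M values (TMM), which sets libraries level on the bulk of genes. At 20 µM these ratios were 0.904 and 0.839. In bulk RNA, less mRNA of the members and more of other mRNAs in the same library cannot be told apart, nor can fewer cells and less RNA per cell.

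Within the ribosome, the summed small-subunit level was 0.737, 0.753, 0.783 and 0.743 of the summed large-subunit level in controls 1 to 4. The ratio was 0.733, 0.732 and 0.731 at 10 µM and 0.710 at 20 µM, so every treated library lay below the lowest control, by less than the range of the controls. This ratio of summed CPM does not depend on the scaling and was not tested.

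Members differed widely in level. On a scale per length (RPKM, here CPM per kilobase of the principal annotated transcript), the median of the 77 canonical members in the controls was 1134. The 3 highest were RPS18 at 3448 ± 560 RPKM, RPS2 at 3070.2 ± 171 RPKM and RPLP0 at 2327 ± 188 RPKM (SD, n = 4). RPS18 and RPS2 did not differ beyond their spread, and RPLP0 lay below both means. The 3 lowest were RPL37A at 144 ± 4.70 RPKM, RPL37 at 147 ± 5.19 RPKM and RPL21 at 158 ± 209 RPKM (SD, n = 4), which could not be ordered within their spread. The principal lengths of RPL37 and RPL37A were 7686 and 3647 bases. In CPM, without a length, these 2 genes were at 1130 and 525 on average in the controls and RPL21 at 114. The highest was 24.0 times the lowest on principal transcripts and 86.5 times on the union of exons, where RPS29 and not RPL37A was lowest. The order at the bottom and the size of the span thus rest on which annotated length is used.

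Of the 83 members tested in treated against control libraries, 7 were lower and 0 were higher (edgeR quasi-likelihood test, Benjamini-Hochberg adjusted p under 0.05). DESeq2 and limma-voom also called 0 members higher. The 7 were RPL36, RPL38 and RPL8 of the large subunit, RPS26 of the small subunit and the paralogs RPL26L1, RPL36AL and RPL7L1. They made up 8.43% of the members, close to the 6.69% of all 13101 genes tested that were lower, while 7.47% of all genes were higher. Most members pointed the same way without passing the test: 78 of 83 had a log2 fold change below zero, against 5810 of 13101 genes. An unadjusted p under 0.05 was found in 22 members, all of them below zero. It was found in 4459 of the 13101 genes, in either direction, so the members' share was the smaller. The median log2 fold change was -0.21 in the members and 0.08 in all genes tested. The 5 members above zero were RPL13A (0.10), RPL10 (0.10), RPS3A (0.04), RPL15 (0.01) and RPL3 (0.00), and none of them passed the test. Signs in the other settings were counted only for 45 genes named by rule. Among these, RPL10 and RPL3 fell below zero in some settings, always short of the threshold. RPL21, RPL36A, RPL39, RPLP0 and RPS27 rose above zero in some, also short of it. Members outside the 45 changed sign too. With the libraries named by letters alone, RPL13A was at -0.10 and RPL15 at -0.30. With those named by digits alone, RPL12 was at 0.03 and RPL4 at 0.02. The medians of the large subunit (-0.21), small subunit (-0.21) and stalk (-0.21) were equal to 2 decimals, and that of the 6 paralogs tested was -0.42. With library totals alone and no TMM factor, the members' median was -0.09 and that of all genes 0.20. In that setting 2 members were lower, RPL26L1 and RPS26, and 514 of 13101 genes.

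**Figure D1:**
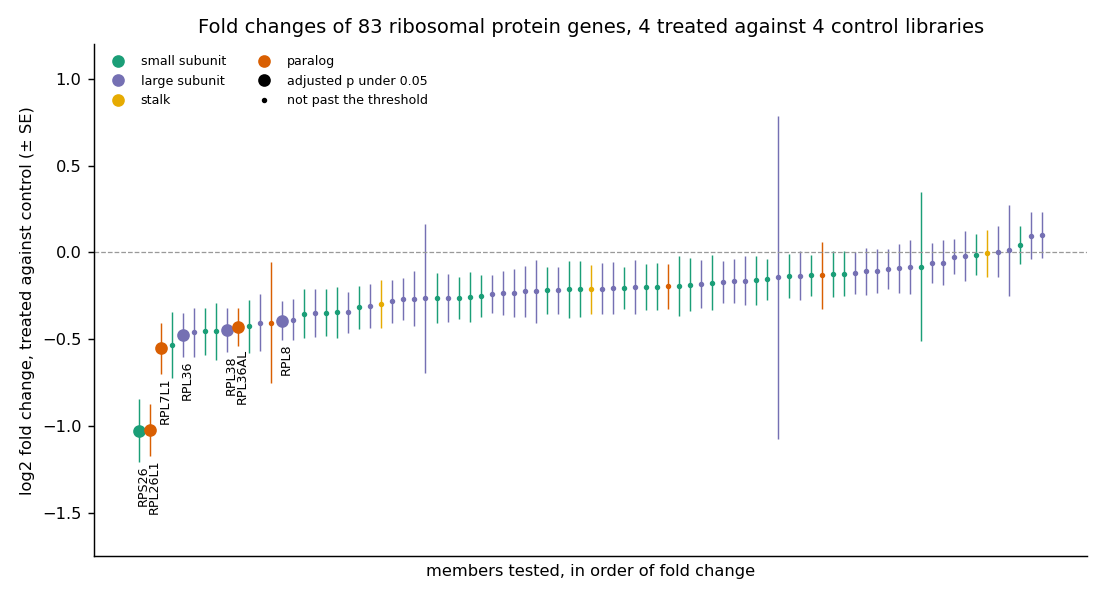
The log2 fold change of each of the 83 members tested, treated minus control, is plotted in rank order with its standard error, coloured by role, and members past adjusted p 0.05 have large, named points. All but 5 members lie below zero, with quartiles at -0.31 and -0.13, and RPS26 and RPL26L1 stand at the low end at -1.03 and -1.02.

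The count of 7 depended on single libraries, as did that of all genes that were lower, 876 in the main fit. The members' count was 2, 1, 0 and 2 without control 1, 2, 3 or 4. It was 14, 2 and 1 without 10 µM replicate 2, 3 or 4, and 11 without the 20 µM library. Of all genes, 276, 67, 21 and 160 were lower without control 1, 2, 3 or 4. The number was 1055, 365 and 120 without 10 µM replicate 2, 3 or 4, and 1586 without the 20 µM library. With the replicate number as a block, 12 members were lower, the additional ones being RPL27, RPL35, RPS2, RPS27A and RPS29. In that fit 1360 of 13101 genes were lower.

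The size of the shift differed between treated libraries. The median deviation of the 83 members from the control mean, on TMM-scaled log2 CPM, was -0.05, -0.05, 0.14 and -0.07 in controls 1 to 4. It was -0.07, -0.17 and -0.38 in 10 µM replicates 2 to 4 and -0.33 at 20 µM. Replicate 2 at 10 µM was thus level with control 4, the other 3 treated libraries lay below all controls, and control 3 lay above the rest, with 9 of 83 members below the control mean against 56 to 75 in the other controls. The median over all genes tested stayed between -0.01 and 0.08 in every library.

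**Figure D2:**
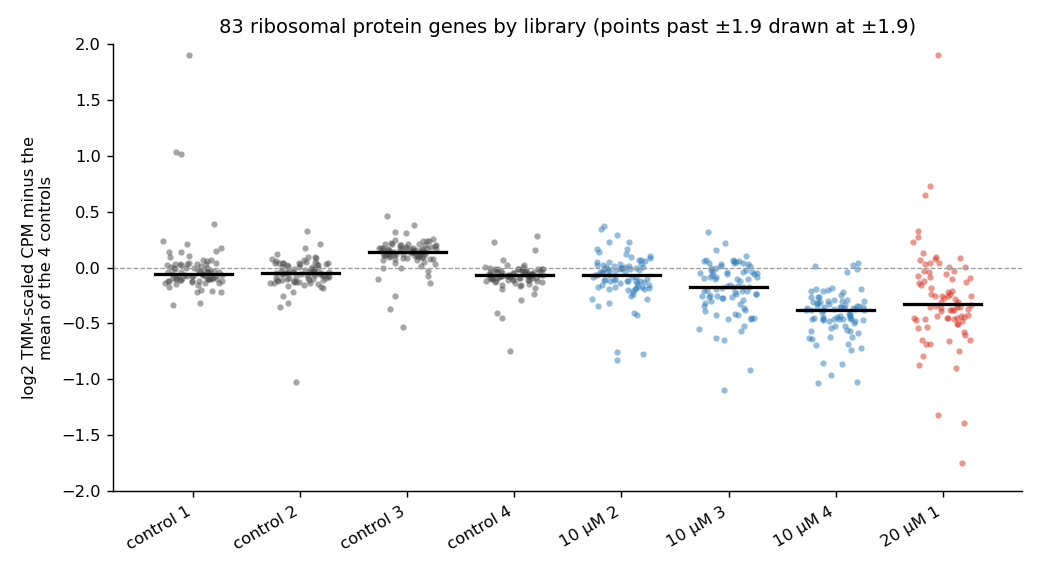
Each point is 1 of 83 members in 1 library, as log2 TMM-scaled CPM minus the mean of the 4 controls, and bars are medians. The medians of the controls run from -0.07 to 0.14, 10 µM replicate 2 sits at -0.07, and the other treated libraries sit at -0.17, -0.38 and -0.33, with a wider scatter of members at 20 µM.

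Separation of single genes followed the same pattern. Every treated library lay below every control in 21 of 83 members (25.3%) on TMM-scaled CPM, against 14.4% of all genes tested. No member had every treated library above every control, against 13.6% of all genes. Without the TMM factor the count was 11 members (13.3%, against 10.5% of all genes), which were RPL24, RPL17, RPL6, RPL27, RPL35 and the genes called other than RPL8.

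In the large subunit, 3 of 43 members (6.98%) passed the test as lower, close to the 6.69% of all genes tested, and 39 of 43 lay below zero. RPL38, whose loss in mice disturbs translation of homeobox mRNAs, was at 412, 432, 445 and 404 TMM-scaled CPM in controls 1 to 4. It was at 349, 310.4 and 256 in 10 µM replicates 2 to 4 and at 327 at 20 µM. All 4 treated libraries lay below the lowest control (treated minus control -0.45 in log2, SE 0.12, adjusted p = 0.045 with edgeR). RPL36 was at 492, 449, 520.2 and 468 TMM-scaled CPM in the controls, at 364, 326 and 300.0 at 10 µM and at 397 at 20 µM. The groups did not overlap, with 20 µM nearest to the controls, and RPL36 fell by 0.48 on the log2 scale (SE 0.12, adjusted p = 0.039 with edgeR). RPL8, which lies near the catalytic centre that forms peptide bonds, was at 1748, 1519, 1791 and 1640.2 TMM-scaled CPM in the controls and at 1401, 1248, 1164 and 1287 in the treated libraries in the same order. Its groups were also separate, and RPL8 fell by 0.39 on the log2 scale (SE 0.11, adjusted p = 0.047 with edgeR). RPL27, a Diamond-Blackfan gene, had a log2 fold change of -0.39 (adjusted p = 0.056, or 0.044 with the block).

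RPL5 and RPL11, which bind MDM2 when ribosome assembly fails, had log2 fold changes of -0.20 and -0.31 (edgeR adjusted p = 0.39 and 0.12). RPL5 ranged from 1383 to 1714 TMM-scaled CPM in the controls and was at 1526, 1577 and 1137 at 10 µM and 1118 at 20 µM, so that 2 treated libraries lay inside the control range. RPL11 lay below the lowest control (1087) in all 4 treated libraries, at 1065, 1003, 823 and 856. The member most like RPL38 across the 8 libraries was RPL17 (Pearson r of log2 TMM-scaled CPM = 0.97), and RPL27 (0.96), RPL36 (0.94) and RPS21 (0.93) were also among the most alike. The values share libraries, depth and treatment.

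In the small subunit, 30 of 31 members lay below zero, and RPS26 alone passed the test (3.23% of the members, against 6.69% of all genes tested that were lower). RPS26 contacts the mRNA just upstream of the codon being read and is one of the genes mutated in Diamond-Blackfan anaemia. The gene (chr12:56041351-56044697 in the GENCODE 29 annotation of GRCh38) was at 450.4, 305, 338 and 304 TMM-scaled CPM in controls 1 to 4. It was at 202, 183 and 169.7 in 10 µM replicates 2 to 4 and at 132 at 20 µM. Every treated library lay below the lowest control, and RPS26 fell by 1.03 on the log2 scale (SE 0.18, adjusted p = 0.017 with edgeR). Control 1 stood above the other controls, and the call was lost without control 2 (adjusted p = 0.052), control 3 (0.066) or 10 µM replicate 4 (0.053), with log2 fold changes between -1.09 and -1.03. Without control 1 and the 20 µM library together, the fold change was -0.77 (adjusted p = 0.004).

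RPS15, which sits in the head of the small subunit, was at 669, 559, 636 and 554 TMM-scaled CPM in the controls and at 529, 438, 401 and 396 in the treated libraries. The groups did not overlap, and the log2 fold change was -0.45 (edgeR adjusted p = 0.055). RPS29, also a Diamond-Blackfan gene, had a log2 fold change of -0.53 (adjusted p = 0.087, or 0.026 with the block), and its 128 TMM-scaled CPM in 10 µM replicate 2 lay inside the control range of 118 to 184. RPS19, the gene most often mutated in Diamond-Blackfan anaemia, ranged from 775 to 895 TMM-scaled CPM in the controls and from 671 to 819 in treated libraries, with a log2 fold change of -0.16 (adjusted p = 0.37). RPS6, the substrate of the S6 kinases, had -0.12 (adjusted p = 0.53), RPSA, which is also described as a laminin receptor, had -0.21 (0.38), and RPS27A, made as a fusion with ubiquitin, had -0.35 (0.12, or 0.047 with the block). RPS2 and RPS18, the most abundant per length, had -0.45 (0.091, or 0.042 with the block) and -0.17 (0.46).

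The stalk proteins gave no call. RPLP0, which anchors the stalk to the large subunit, was at 3058, 2791, 3516 and 2846 TMM-scaled CPM in the controls and at 3343, 3190.1, 2449 and 3178 in the treated libraries, with a log2 fold change of -0.01 (edgeR adjusted p = 0.98). Its treated libraries lay on both sides of the control mean. RPLP1 and RPLP2, which form the dimers that extend from it, had -0.21 (adjusted p = 0.32) and -0.30 (0.16). RPLP1 was at 975, 761 and 747 at 10 µM and at 1055 at 20 µM, against 972 to 1055 in the controls, and RPLP2 was at 860.2, 629, 600.0 and 727 against 818 to 920.1. In both, 10 µM replicates 3 and 4 were low and replicate 2 was within the control range.

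Paralogs had the largest share of calls, 3 of 6 tested, against 6.69% of all genes tested that were lower, although 6 genes are few. RPL26L1, a close copy of RPL26 on another chromosome (chr5:172958729-172969771 in GENCODE 29), was at 45.9, 38.9, 45.4 and 40.8 TMM-scaled CPM in controls 1 to 4. It was at 25.2, 20.0 and 21.9 in 10 µM replicates 2 to 4 and at 17.1 at 20 µM. Treated libraries lay below all controls, and RPL26L1 fell by 1.02 on the log2 scale (SE 0.15, adjusted p = 0.010 with edgeR). The call was lost without control 3 (adjusted p = 0.054) and held without each other library. RPL36AL (chr14:49618519-49620685) was at 127, 145, 146 and 129 in the controls and at 101, 95.1, 99.4 and 110.1 TMM-scaled CPM in the treated libraries, with a log2 fold change of -0.43 (adjusted p = 0.035). RPL7L1 (chr6:42879618-42889925), a homologue of RPL7 that acts in assembly of the large subunit, was at 408, 503, 498 and 443 in the controls and at 363, 352, 297 and 252 TMM-scaled CPM when treated, with a log2 fold change of -0.55 (adjusted p = 0.041). In both genes the groups were separate. These 2 calls, like those of RPL36, RPL38 and RPL8, were kept without 10 µM replicate 2 or without the 20 µM library and lost without any of the other 6 libraries.

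Paralog and partner can share reads, so their coding sequences were compared. Over the coding sequence of GENCODE 29, RPL26L1 and RPL26 were 84.25% identical, with 69 substitutions and a longest shared run of 20 bases. RPL36AL and RPL36A were 90.03% identical, with 32 substitutions and a longest shared run of 63 bases, so that short reads in that run cannot be assigned to 1 of the 2 genes. The first 60 coding bases of both pairs are shown to let the differences be seen, with capitals at the bases that differ, 12 in the first pair and 9 in the second.
RPL26L1: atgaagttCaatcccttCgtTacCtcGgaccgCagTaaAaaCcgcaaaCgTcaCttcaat
RPL26: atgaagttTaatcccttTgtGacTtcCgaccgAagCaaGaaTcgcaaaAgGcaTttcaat
RPL36AL: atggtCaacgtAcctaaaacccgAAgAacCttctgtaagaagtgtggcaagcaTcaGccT
RPL36A: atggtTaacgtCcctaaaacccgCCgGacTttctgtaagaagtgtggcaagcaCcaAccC

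RPL7L1 (53.7% identical to RPL7) and RPL22L1 (65.4% to RPL22) were far from their partners, RPS27L was 78.0% identical to RPS27, and RPL39L, with only 8 substitutions in 156 coding bases, was 94.9% identical to RPL39. How the authors' counting treated reads that fit more than 1 gene is not given in the sources used here, so the values of the closest pairs are uncertain.

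The ratio of paralog to partner within a library needs no scaling between libraries. RPL26L1 was at 6.15%, 5.43%, 5.24% and 5.23% of RPL26 in controls 1 to 4, at 3.28%, 2.77% and 3.61% in 10 µM replicates 2 to 4 and at 2.55% at 20 µM. The ratio was lower in every treated library than in every control, with a mean log2 difference of -0.86 (treated minus control, exact two-sided permutation test p = 0.0286, 0.0571 adjusted over 6 pairs). RPL36AL over RPL36A ran from 25.8% to 34.4% in the controls and from 19.3% to 23.3% when treated (log2 difference -0.37). RPL7L1 over RPL7 ran from 20.1% to 24.6% in the controls and from 16.7% to 19.0% when treated (log2 difference -0.28). Both pairs were also separate, with the same exact permutation p of 0.0286, the smallest that 4 against 4 libraries can give, and the same adjusted value, which does not pass 0.05. The ratios of RPL22L1 (-0.35), RPS27L (-0.19) and RPL39L (-0.07) overlapped between groups, with exact permutation p of 0.40, 0.37 and 0.69. The partners RPL26 and RPL36A themselves had log2 fold changes of -0.17 and -0.06 and RPL7 one of -0.27, none of which passed edgeR's test (adjusted p = 0.36, 0.78 and 0.26). RPL10L and RPL3L were near 0 in all 8 libraries, at most 0.152 and 0.220 TMM-scaled CPM, while RPL10 was at 1212 or more and RPL3 at 1877 or more.

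**Figure D3:**
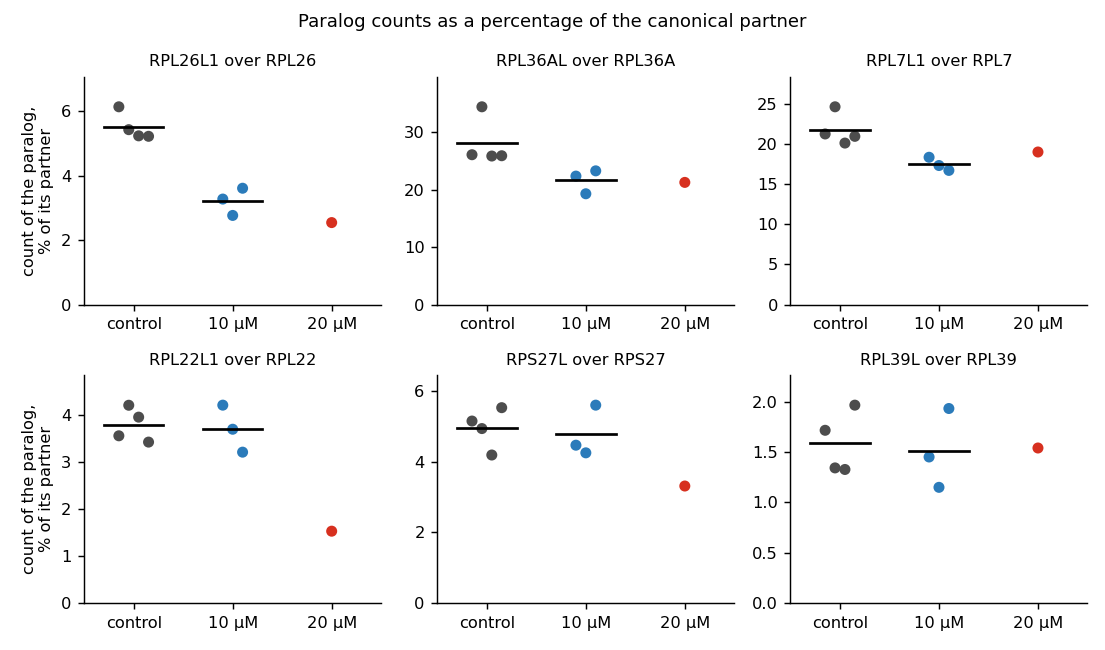
The count of each paralog as a percentage of its canonical partner is plotted for each library, with bars at the means of the controls and of 10 µM. RPL26L1, RPL36AL and RPL7L1 are separate between controls and treated libraries, and RPL22L1 is low at 20 µM alone, at 1.53% against 3.22% or more in every other library.

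At 10 µM against control, in a fit with 3 dose levels, 10 of 86 members were lower (11.6%) and 0 were higher. Of all 14857 genes tested, 9.79% were lower and 9.34% were higher. The members were the 7 already named with RPS15 (-0.41, edgeR adjusted p = 0.049), RPL27 (-0.37, 0.043) and RPL28 (-0.41, 0.043). RPL26L1 and RPS26 again had the largest differences among them, -0.94 and -0.92 (adjusted p = 0.002 and 0.006). The median of the members was -0.19 and that of all genes 0.05, and it was -0.10 without 10 µM replicate 4 and -0.28 without replicate 2. The count of lower members was 31 with the replicate block, 5, 4 and 5 without control 2, 3 or 4, and 18, 4 and 4 without 10 µM replicate 2, 3 or 4. Of all genes, 1455 were lower in the main fit and 2251 with the block. The number was 947, 804 and 1084 without control 2, 3 or 4, and 1536, 721 and 732 without 10 µM replicate 2, 3 or 4.

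At 20 µM against 10 µM, 3 members were lower (3.49%) and 1 was higher, against 14.6% of all genes that were lower and 11.7% that were higher. The median of the members was -0.13, against 0.01 in all genes, and it was -0.25 without 10 µM replicate 4 and -0.05 without replicate 2. As there was 1 library at 20 µM, the test assumed that it varies like the other groups, and the dose rests on the label of replicate 1 alone. RPL22L1, whose mRNA RPL22 can bind and repress, was at 7.89 TMM-scaled CPM at 20 µM, against 27.2, 27.1 and 19.1 at 10 µM and 22.5 to 31.4 in the controls. RPL22L1 fell by 1.65 on the log2 scale between the doses (SE 0.31, adjusted p = 0.005 with edgeR), while at 10 µM it lay within the controls' range in 2 of 3 libraries. RPL6 was at 877 against 1431, 1416 and 1227 at 10 µM and 1517 to 1804 in the controls (-0.65, adjusted p = 0.016). RPL7 was at 1329 against 1776 to 2033 at 10 µM (-0.56, adjusted p = 0.043, or 0.11 with the block).

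RPL28 went the other way. It was at 628, 523 and 586 TMM-scaled CPM at 10 µM and at 896 at 20 µM, where it was higher (0.61, edgeR adjusted p = 0.030, or 0.29 with the block). Its controls were at 900.1, 696, 710.0 and 767, with control 1 as high as the 20 µM library that carries the same replicate number. No replicate number holds both doses. With the block, the 20 µM library is therefore set against control 1 and each 10 µM library against its own control, and these differences are compared. By that measure RPL22L1 and RPL6 were lower at 20 µM, by log2 differences of -1.35 and -0.64, and so was RPS26. RPS26 was at 450.4 TMM-scaled CPM in control 1 and at 304 to 338 in the other controls. Without the block its log2 difference between the doses was -0.51 and it was not called. Which members were called at 20 µM also changed when 1 library was left out. Without control 1 the members' median log2 difference between the doses was -0.13, against 0.01 in all genes.

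Control 1 and the 20 µM library stood apart from the rest in some members whatever the treatment. RPL21 was at 341 and 289 TMM-scaled CPM in these 2 libraries and between 33.9 and 47.6 in the other 6. RPL41, the smallest ribosomal protein, was at 1037 and 850.1, against 284 to 431 elsewhere, and RPS9 was at 755 and 579, against 181 to 479. None of the 3 passed the test in any comparison. Both libraries were also the deepest, at 141307169 and 124240276 counts, against 71151415 to 91814646 in the others, and in 9 lines of the table that name no gene they are blank where the other 6 hold an error value. Whether the 2 libraries were processed apart from the rest is not given in the sources used here. Without both, 9 of 83 members were lower, including all 7, with RPL27 and RPS27A added, and the median was -0.20. In that fit 1542 of 12981 genes were lower.

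**Figure D4:**
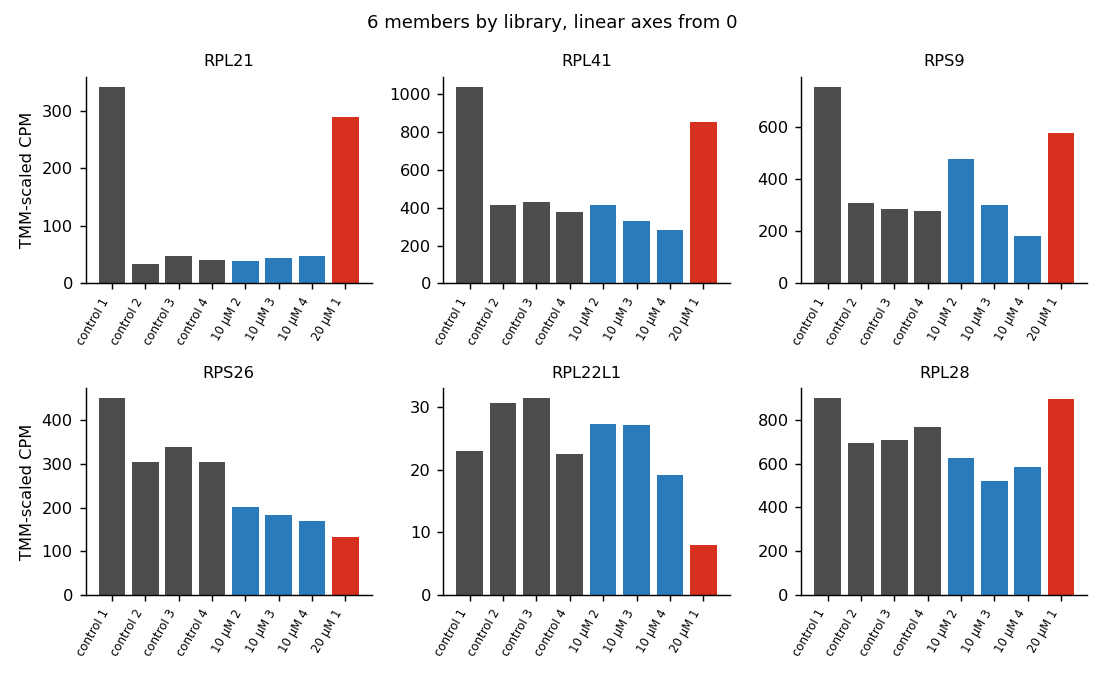
Bars give the TMM-scaled CPM of 6 members in each library, on linear axes from 0, with controls, 10 µM and 20 µM in separate colours. RPL21, RPL41 and RPS9 are highest in control 1 and at 20 µM, RPS26 is lower in all 4 treated libraries than in any control, RPL22L1 is lowest at 20 µM, and RPL28 is low at 10 µM alone.

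Genes that work with the ribosomal proteins were read from lists. FAU, a small-subunit protein under another symbol, was lower in treated libraries. It was at 439 ± 38.7 CPM in the controls (SD, n = 4), 353 at 10 µM on average and 341 at 20 µM (log2 fold change -0.44, edgeR adjusted p = 0.045, or 0.052 with the block). The call was kept without 10 µM replicate 2 or the 20 µM library and lost without any of the other 6 (adjusted p = 0.085 to 0.14). RACK1, a scaffold on the small subunit, did not pass the test (-0.21, 0.33). Among 15 other TOP mRNAs, translation factors for the most part, 0 passed in treated against control, and the median was -0.17. An unadjusted p under 0.05 was found in 2 of them, against 4459 of 13101 genes tested. Without the 20 µM library, EEF1D and NPM1 were lower. The 2 with the smallest p were NPM1, a nucleolar chaperone, at -0.81 (adjusted p = 0.063, or 0.012 with the block), and TPT1, at 0.53 (0.11). EEF1A1, the elongation factor that delivers aminoacyl-tRNA, had 0.14 (0.43).

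Of 7 chaperones that guard single ribosomal proteins before assembly, 4 were lower and 0 higher (6.69% and 7.47% of all genes tested), with a median of -0.66. They were GRWD1, the chaperone of RPL3 (-1.18, edgeR adjusted p = 0.018), PDCD2L, of RPS2 (-1.32, 0.017), BCCIP, of RPL23 (-0.93, 0.049), and RPS19BP1, which binds RPS19 (-0.66, 0.031). The count of 4 was 2, 0, 0 and 1 without control 1, 2, 3 or 4, it was 3, 2 and 0 without 10 µM replicate 2, 3 or 4, and it was 4 without the 20 µM library. GRWD1 lost its call without control 2, 3 or 4 or 10 µM replicate 4 (adjusted p = 0.052 to 0.071) and PDCD2L without control 2 or 3 or 10 µM replicate 4 (0.054 to 0.071). TSR2, the chaperone of RPS26, had -0.24 (adjusted p = 0.25). GRWD1 was at 156 ± 5.99 CPM in the controls (SD, n = 4), 84.4 at 10 µM on average and 46.1 at 20 µM, and PDCD2L at 28.7 ± 3.00, 14.3 and 7.30, whereas RPL3 and RPS2 had log2 fold changes of 0.00 and -0.45 that did not pass. In the 1 library at 20 µM, log2 differences from 10 µM were -0.88 in GRWD1, -0.97 in PDCD2L, -1.24 in BCCIP and -1.57 in HEATR3. They were -0.44 in PDCD2, -0.40 in RPS19BP1 and -0.23 in TSR2. The median of the 7 was -0.88, against 0.01 in all genes.

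Of 15 genes of mTORC1 and TOP mRNA control, 4 were lower and 0 higher in treated libraries (6.69% and 7.47% of all genes tested), with a median of -0.13. They were LARP1, which binds TOP tracts (-0.57, edgeR adjusted p = 0.031), RPTOR (-0.52, 0.021) and MLST8 (-0.74, 0.036), which are subunits of mTORC1, and the kinase gene RPS6KB2 (-0.55, 0.034). The count of 4 was 1 without control 1 (LARP1), 0 without control 2, 3 or 4 or 10 µM replicate 3 or 4, 4 without 10 µM replicate 2, where DDIT4 was higher, and 5 without the 20 µM library. LARP1 was at 635 ± 54.6 CPM in the controls (SD, n = 4), 489 at 10 µM on average and 393 at 20 µM. In the 1 library at 20 µM, log2 differences from 10 µM were 2.67 and 2.77 in the mTORC1 inhibitors DDIT4 and SESN2. They were 1.17 in TSC1, 0.76 in EIF4EBP1 and -0.68 in both MLST8 and EIF4E. The median of the 15 was -0.17, against 0.01 in all genes. With the block, EIF4E was also lower (adjusted p = 0.037) and DDIT4 higher (0.013) in treated against control libraries. mRNA levels do not measure mTORC1 activity or translation.

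The 19 members linked to Diamond-Blackfan anaemia had a median log2 fold change of -0.23, close to that of all members. Of these, 7 had an unadjusted p under 0.05, close to the share of all genes tested (4459 of 13101). After adjustment, 1 was lower in treated libraries (RPS26) and 0 were higher, against 6.69% and 7.47% of all genes tested. The count was 0 without control 2, control 3 or 10 µM replicate 4, 4 without 10 µM replicate 2 and 3 without the 20 µM library. RPL27 joined RPS26 at 10 µM.

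The cell line label was checked against 10 genes of K562, all of which had counts. Their summed level was 4959 to 8073 CPM in the controls, 4503 to 5546 at 10 µM and 3235 at 20 µM, and HBZ, HBG2 and HBG1 were lower in treated libraries. Markers of other cells were low: 12.5 to 16.4 CPM summed over 4 T cell genes in the controls, 0.58 to 1.05 for B cells, 17.7 to 124 for monocytes, 28.04 to 54.4 for epithelium and 0.99 to 4.24 for fibroblasts. At 20 µM these sums were 5.40, 1.10, 20.3, 17.6 and 10.5, and at 10 µM they ran from 12.6 to 21.6, 1.14 to 1.56, 19.5 to 107, 31.8 to 42.3 and 1.21 to 3.37. None of these genes was at 0 in every library, and the part of the erythroid genes or of other cells in the members' results was not tested.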

How the data were processed

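Counts per gene for 8 libraries were deposited by the authors as 1 table of whole numbers, per the file header and the values. bcl2fastq 2.0, HISAT2, StringTie, DESeq2 and limma on hg38 are named in the submitters' processing notes, with no role or order. The table holds 401 entries at 1 count and 2958 at 4, a spacing unlike that of single reads, so a count may not be 1 read. Another 9 lines named no gene and held no count in any library, so they entered neither library sizes nor tests. Total counts ran from 71151415 to 141307169, which limits counting error only.

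Genes were filtered with filterByExpr, scaled by TMM (factors 0.903 to 1.085) and tested with edgeR 4.0.16 in R 4.3.3 (quasi-likelihood, two-sided, Benjamini-Hochberg over all genes tested, threshold 0.05). The 4 treated libraries were set against the 4 controls, and a fit with 3 levels gave each dose. The SE was the fold change over the square root of F. CPM is 1000000 times the count over the library total, TMM-scaled where stated. Scripts were tested on simulated data. Alternatives were DESeq2 1.42.0, limma-voom 3.58.1, other scalings and filters, the replicate block, the naming pattern of the libraries and leaving out each library. Letters name controls 1 and 4, 10 µM replicate 4 and the 20 µM library, and digits the others, and the labels do not call this a batch.

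Controls and treated libraries share replicate numbers in the labels. The main fits and the permutation tests of paralog ratios did not pair libraries by these numbers, and only the block fits used them. Deviations from the group means correlated across genes at 0.453, 0.251, 0.390 and 0.262 in pairs 1 to 4, all above 0.1, so the numbers were taken to pair the libraries, from the data and not from a stated design. Unmatched libraries of the same naming pattern correlated about as much (control 3 with 10 µM replicate 2 at 0.242, control 2 with replicate 3 at 0.310), so pairs 2 and 3 are not singled out by number.

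Members and lists were chosen with earlier results of these data known, so lists have counts and medians and no test. Named were the members past the threshold, the 3 with the smallest p in each role, the 3 highest and lowest per length, every paralog with its partner, 12 fixed members, and the 2 genes with the smallest p of each list. Other genes were named where a count of 5 or fewer required it or after their values were seen (RPL21, RPL41, RPS9, RPL15, the members of the count without overlap and single genes of the lists). Promoter windows came from RefSeq, and positions, lengths and coding sequences from GENCODE 29. Some genes that the rule names are not reported here.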

Additional observations from a re-analysis of the deposited data

Results flagged for a closer look

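Within the 4 controls, control 1 lay apart from the other 3 in 5 members, where its gap to the nearest control took up more of the range in CPM than Dixon's 95% critical value for 4 samples allows. The gap was 0.965 of the range in RPL21 (32.2 to 341 CPM), 0.969 in RPL41 (371 to 1037 CPM), 0.926 in RPS9 (258 to 755 CPM), 0.899 in RPS26 (289 to 450.4 CPM) and 0.891 in RPL23A (664 to 837 CPM). Control 1 was the highest in each. Of 83 members examined, 5 is about the 1 in 20 that chance gives, although all 5 came from 1 library. In RPS26 the higher control adds to the distance from the treated libraries, and the fold change without control 1 and the 20 µM library is given with that gene.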

How the results depend on the processing

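Under every alternative tried, 0 members were higher in treated libraries or at 10 µM, and of 1404 single-gene values for 45 genes, 169 lost and 33 gained the threshold and 35 changed sign. The changes of sign were in 7 genes in treated against control, with no value past the threshold: RPL21 (0.01 with limma-voom and with the replicate block, 0.02 in the digits-named libraries, 0.09 without control 1 and the 20 µM library, -1.44 to 1.36 without 1 library), RPLP0 (0.04 in the digits-named libraries, 0.11 with library totals, 0.01 at a mean CPM of 1 or more, 0.05 with upper-quartile scaling, -0.08 to 0.08 without 1 library), RPS27 (0.11, 0.00 and 0.04 with library totals, the CPM filter and upper-quartile scaling, -0.07 to 0.04), RPL36A (0.06 with library totals, -0.13 to 0.01), RPL39 (0.06 with library totals), RPL10 (-0.00 without control 1 and the 20 µM library) and RPL3 (-0.15 in the letters-named libraries, -0.01 with DESeq2, the naming pattern and relative log expression scaling, -0.00 with limma-voom, no filter and the block, -0.10 to 0.09 without 1 library). The 7 members lower in treated libraries became 14 with DESeq2, 19 with the naming pattern as covariate, 12 with the replicate block, 4 with upper-quartile scaling, 3 with no filter, 2 with library totals alone and 0 in the letters-named libraries alone, where 2 against 2 libraries gave no call for any gene. Leaving out 1 library gave 0 to 14. Of all genes, 876 were lower in the main fit and 21 to 1586 when 1 library was left out. With DESeq2, the naming pattern, the block, upper-quartile scaling, no filter and library totals, 1664, 1563, 1360, 728, 704 and 514 were lower. The members' median of -0.21 became -0.33 in the letters-named libraries and -0.09 with library totals alone. The 10 members lower at 10 µM became 20 with DESeq2, 32 with the naming pattern, 31 with the block and 6 with library totals. They became 4 to 18 when 1 library was left out. Of all genes, 1455 were lower in the main fit, 2001, 2297, 2251 and 957 in these settings, and 721 to 1586 when 1 library was left out. The members' median of -0.19 became -0.06 with library totals and -0.28 to -0.10 when 1 library was left out. At 20 µM against 10 µM, the 3 lower members became 5 with DESeq2 and 8 with library totals (2 to 13 without 1 library). The 1 higher member became 2 with limma-voom or the naming pattern and 0 with the block (0 to 4 without 1 library), and the median of -0.13 became 0.02 with the naming pattern and -0.25 without 10 µM replicate 4 (-0.25 to -0.05 when 1 library was left out). The comparison of 20 µM with 10 µM rests on 1 library at 20 µM and an assumed spread. The number of all genes that were lower in it also changed with the setting. The members' counts in that comparison are therefore not read as a result about the members. Summed levels of 0.968 and 0.904 of control became 0.890 and 0.839 after TMM scaling. Using library totals alone was added after the data were seen, as was leaving out control 1 with the 20 µM library. Members with many processed copies and the closest paralog pairs remain uncertain at any depth.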

Other observations

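Processed copies of the members are many, and reads from them or shared with them can be counted under another symbol. GENCODE 29 names 1133 pseudogenes after the 77 canonical members, with a median of 10 per member, and 76 members have at least 1. RPL23A has 91, RPSA 74, RPL21 66, RPL7 61 and RPS26 30, whereas RPL41 has 3 and RPL8, RPL27 and RPS9 have 1 each.

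RPL15, a large-subunit member linked to Diamond-Blackfan anaemia, split the controls into pairs. It was at 841 and 827 TMM-scaled CPM in controls 1 and 2, at 1456 and 1241 in controls 3 and 4, at 1344, 1318 and 1068 at 10 µM and at 677 at 20 µM. The lowest values were thus in controls 1 and 2 and the 20 µM library, and RPL15 passed the test in none of the 3 comparisons (edgeR adjusted p = 0.98, 0.60 and 0.077).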
